A study of Mus musculus with 12 samples.

Results

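The HoxD cluster of the mouse, with its neighbour Evx2, was examined as 10 genes: Evx2, Hoxd13, Hoxd12, Hoxd11, Hoxd10, Hoxd9, Hoxd8, Hoxd4, Hoxd3 and Hoxd1. Its members in the data were the called peaks that overlapped, by at least 1 bp, a window of 130 kb on chromosome 2 (mm9, 74480001 to 74610000), with Evx2 and Hoxd13 towards its low-coordinate end and Hoxd1 towards its high end. Of 189536 peaks in 7 lists, 83 were members. They comprised 7 double-mutant and 5 wild-type H3K27ac peaks, 5 double-mutant, 3 wild-type and 18 E10.5 H3K27me3 peaks, 24 HOXA13 peaks and 21 HOXD13 peaks.

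The study mapped chromatin by immunoprecipitation and sequencing (ChIP-seq) in forelimb buds, the outgrowths that form the arms. Double-mutant embryos (Hoxa13-/-;Hoxd13-/-, E11.5, mixed C57BL/6 and CD1 background) carried a neomycin cassette in the coding region of Hoxa13 and a lacZ reporter in the first exon of Hoxd13, so the double-mutant chromosome differs from wild type inside the cluster itself. Wild-type embryos had the same stage and mixed background, and both groups were profiled for H3K27ac and H3K27me3 in the distal part of the forelimb, per the titles, while the protocol text speaks of ZAP cells without spelling out the abbreviation. HOXA13 and HOXD13 were mapped in wild type, HOXA13 with an additional cross-linker (disuccinimidyl glutarate). The E10.5 embryos were CD1, whole forelimb buds per the title, and their H3K27me3 was precipitated with an antibody from another supplier. Each profile came from 1 library, so no difference has a replicate check and no test between groups was possible. Read depth is unknown, because the lists hold peaks and no counts. For the same reason neither the tissue nor the loss of the proteins could be checked against the expression of marker genes or of the mutated genes. A peak list from whole tissue also cannot tell fewer cells carrying a mark from less of the mark per cell, nor whether 2 marks called at 1 place lie in the same cells.

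Hox genes encode homeodomain transcription factors that give positional identity along the body and limb axes. In the limb, the HoxD genes are switched on in order along the chromosome, from Hoxd1 towards Hoxd13, and in the future digits the genes at the Hoxd13 end are the most active, under enhancers that lie beyond Evx2. H3K27ac marks active promoters and enhancers. H3K27me3 is laid down by Polycomb repressive complexes and covers silent Hox genes. Hoxd13, Hoxd12, Hoxd11, Hoxd10 and Hoxd9 belong to the posterior (Abdominal-B related) class, with roles in the forearm and digits. Evx2, a homeobox gene related to even-skipped of the fly, is expressed with Hoxd13 in digits. Hoxd8, Hoxd4, Hoxd3 and Hoxd1 belong to the central and anterior classes and act mainly in the trunk and nervous system.

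The gene models at hand were of GRCm38 and the peaks are on mm9, so no gene was placed on a peak. From that annotation only the order was used: Evx2 stood first and on the minus strand, Hoxd13 to Hoxd1 followed on the plus strand, Hoxd4 lay within the span of Hoxd3, and the spans of Hoxd11 and Hoxd10 overlapped. RefSeq promoter sequences of 300 bases around a start matched all 10 genes, with 11 starts. Of these, 5 are shown, because they come from the ends of the gene row (Evx2 and Hoxd13 at one, Hoxd1 at the other) or hold a match to a HOX13-type motif. The motifs searched on both strands were CAATAAA and TCGTAAA, forms that HOX13 proteins are known to prefer, and capitals mark a match on either strand. These coordinates are of GRCm38.p6 and cannot be set against the peak positions.
Evx2 (chr2:74659508-74659807, minus strand, GRCm38.p6): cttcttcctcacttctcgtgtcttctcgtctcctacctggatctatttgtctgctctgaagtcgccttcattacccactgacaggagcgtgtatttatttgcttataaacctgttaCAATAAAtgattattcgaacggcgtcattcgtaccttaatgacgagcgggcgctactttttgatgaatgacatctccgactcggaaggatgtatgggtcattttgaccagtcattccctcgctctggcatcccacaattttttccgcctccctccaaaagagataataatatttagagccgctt
Hoxd13 (chr2:74667975-74668274, plus strand, GRCm38.p6): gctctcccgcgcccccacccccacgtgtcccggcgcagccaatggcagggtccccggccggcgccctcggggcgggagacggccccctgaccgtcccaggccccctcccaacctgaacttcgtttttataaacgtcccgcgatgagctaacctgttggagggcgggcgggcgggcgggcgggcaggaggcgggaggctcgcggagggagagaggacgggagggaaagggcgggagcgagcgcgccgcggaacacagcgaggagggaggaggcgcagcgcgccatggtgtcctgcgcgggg
Hoxd11, first start (chr2:74679308-74679607, plus strand, GRCm38.p6): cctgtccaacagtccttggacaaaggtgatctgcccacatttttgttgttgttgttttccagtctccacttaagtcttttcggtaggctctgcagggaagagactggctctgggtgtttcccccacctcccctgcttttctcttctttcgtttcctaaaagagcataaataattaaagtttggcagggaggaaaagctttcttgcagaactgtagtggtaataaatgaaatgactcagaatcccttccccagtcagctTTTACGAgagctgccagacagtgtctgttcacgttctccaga
Hoxd4 (chr2:74721728-74722027, plus strand, GRCm38.p6): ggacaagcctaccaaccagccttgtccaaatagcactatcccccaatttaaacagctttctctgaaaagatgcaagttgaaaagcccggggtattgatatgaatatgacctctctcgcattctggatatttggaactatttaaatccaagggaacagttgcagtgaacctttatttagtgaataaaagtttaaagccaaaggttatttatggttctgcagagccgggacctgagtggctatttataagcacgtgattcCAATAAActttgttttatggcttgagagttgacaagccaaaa
Hoxd1 (chr2:74762730-74763029, plus strand, GRCm38.p6): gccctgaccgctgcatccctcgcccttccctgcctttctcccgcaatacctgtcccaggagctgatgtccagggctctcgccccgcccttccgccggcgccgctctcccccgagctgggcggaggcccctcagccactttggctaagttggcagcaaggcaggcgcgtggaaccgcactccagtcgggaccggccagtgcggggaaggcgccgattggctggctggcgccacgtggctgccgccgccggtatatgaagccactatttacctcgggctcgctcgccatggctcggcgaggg
Of the 11 promoters, 3 held a motif: CAATAAA in Evx2 and Hoxd4, and TCGTAAA, on the minus strand, in the first start of Hoxd11. Among all 32817 mouse promoters of this length, 4.60% held CAATAAA, 0.597% TCGTAAA and 5.15% either. The promoters of the gene row differed in base composition, with a GC content between 39.7% (Hoxd4) and 74.3% (Hoxd13), a median of 55%, and the median of all promoters was 52.7%. A match is a description of these letters and not a binding site.

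**Figure D1:**
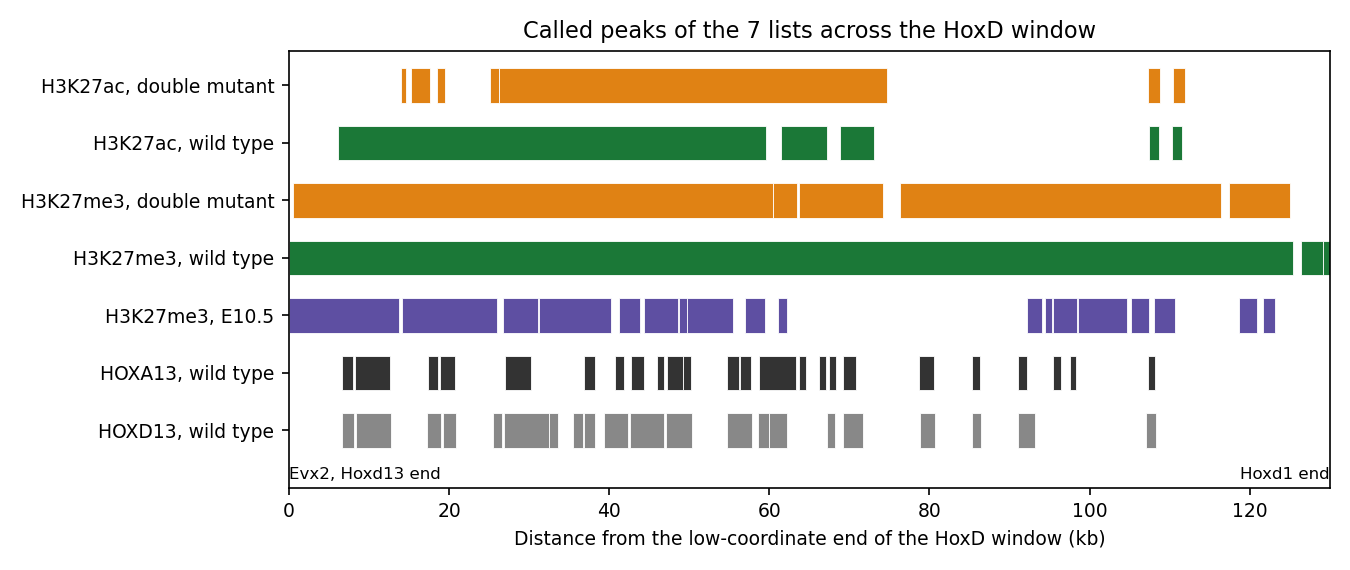
Called peaks of the 7 lists (rows) along the HoxD window; the x axis is the distance in kb from its low-coordinate end, and each bar is 1 peak from start to end. Double-mutant H3K27ac starts further from the low end than wild-type H3K27ac, the blocks of both end near 74 kb, and E10.5 H3K27me3 has a bare stretch of 29961 bp that is covered at E11.5 in wild type.

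The first comparison asked how H3K27ac lay along the cluster with and without HOX13 proteins. In both genotypes it formed 1 block over the part of the window towards Evx2 and Hoxd13 and 2 small peaks further towards Hoxd1. The block was shorter in the double mutant, and nearly all of the difference lay at its low-coordinate edge. H3K27ac covered 56.4 kb, or 43.4% of the window, in the double mutant and 66.1 kb, or 50.8%, in wild type.

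Double-mutant H3K27ac consisted of 7 peaks, scored by the authors' peak caller. Of these, 4 lay at the low end, at 74493952 to 74494614 (score 55), 74495280 to 74497626 (score 367), 74498535 to 74499465 (score 81) and 74505104 to 74506193 (score 133). These were short and separate, and those with scores of 55 and 81 lay near the lowest score in the list, 50. A peak of 48.5 kb followed after a gap of 5 bp, at 74506199 to 74554651 (score 3100), which ranked 2 by width among the 38115 peaks of its list. The distant pair lay at 74587260 to 74588787 (score 725) and 74590449 to 74591878 (score 464).

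In wild type the same stretch held a single peak of 53.4 kb at 74486156 to 74539552 (score 3100), rank 2 by width among 31933 peaks. After it came peaks at 74541475 to 74547255 (score 3100) and 74548824 to 74553127 (score 3131). The distant pair was present too, at 74587380 to 74588716 (score 400.3) and 74590325 to 74591566 (score 302). So the low end, in fragments in the double mutant, was continuous in wild type, and the high part of the block, continuous in the double mutant, was in 3 pieces in wild type. A score is a p-value against the input on a negative log scale and depends on depth. Many peaks share 3100 (2754 in the double-mutant list and 4439 in the wild-type list), so scores rank peaks within a list and are not amounts of acetylation.

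Counted by peaks, none of the 7 double-mutant members lacked a wild-type peak, against 30.1% of all double-mutant peaks (gained), and none of the 5 wild-type members lacked a double-mutant peak, against 15.1% of all wild-type H3K27ac peaks (lost). The count hid the difference, since the widest peaks here span most of the block. Counted by bases, 5.52 kb of double-mutant H3K27ac, or 9.77% of its bases in the window, lay outside wild-type peaks, compared with 31.7% over all double-mutant peaks. In the opposite direction 15.1 kb, or 22.9% of wild-type H3K27ac bases, lay outside double-mutant peaks, compared with 15.0% over all wild-type peaks. The double-mutant list is longer (74.4 Mb covered, and 59.8 Mb in wild type), so the window differed in direction from the lists as a whole.

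Of the 15.1 kb bare in the double mutant, the longest stretches were 7.80 kb at 74486156 to 74493951 and 5.64 kb at 74499466 to 74505103. Between the start of the wide wild-type peak and the start of the wide double-mutant peak, a distance of 20043 bp, H3K27ac covered 25.1% in the double mutant and 100% in wild type. H3K27me3 covered 100% of that stretch in both genotypes and 97.2% at E10.5. The inserted reporter of the Hoxd13 allele also lies towards this end of the gene row, and its effect cannot be told apart here from the absence of the HOX13 proteins. The 5.52 kb present in the double mutant alone were the 2 gaps between the 3 wild-type pieces, of 1.92 and 1.57 kb, a stretch of 1.52 kb at the high-coordinate edge of the block, and 3 shorter stretches at the edges of the distant pair.

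A fit of a single border, the position that leaves most bases covered on one side and bare on the other, put the end of H3K27ac at 74554651 in the double mutant and at 74553127 in wild type. The distance from the low end of the window was 74.7 kb in the double mutant and 73.1 kb in wild type, a difference of 1.52 kb. That is about the width of a peak of the distant pair. It placed 81.4% of the bases in the double mutant and 90.6% in wild type, since the double mutant had a bare low end as well. A fit of 1 block with an end on each side placed 94.7% in the double mutant and 95.3% in wild type; it was added after the peaks had been seen. The block ran from 74505104 in the double mutant and from 74486156 in wild type, so its low edge lay 18.9 kb closer to Hoxd1 in the double mutant. Both edges stayed at these positions under all 4 alternatives tried.

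**Figure D2:**
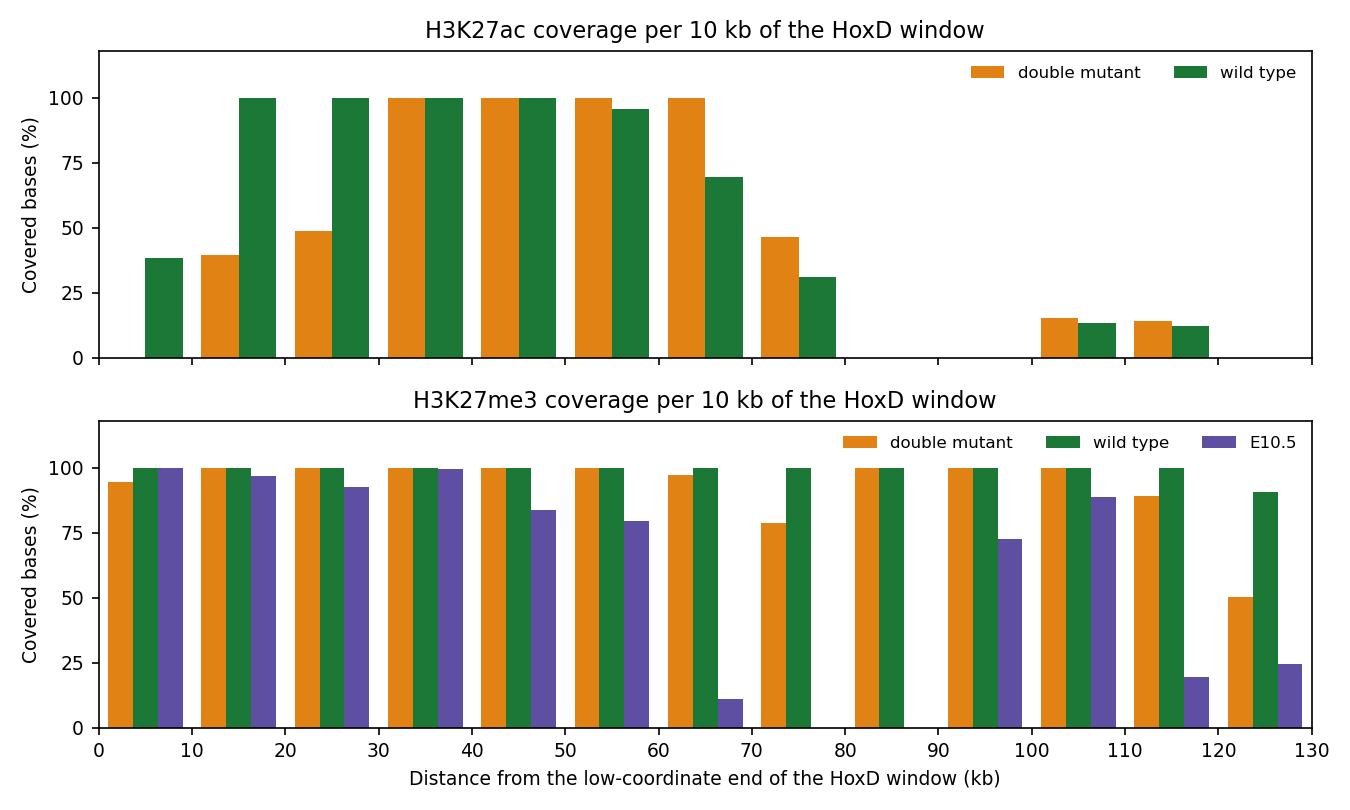
Share of bases (%) covered by called H3K27ac (upper panel) and H3K27me3 (lower panel) in each 10 kb of the window, by distance in kb from its low-coordinate end; bars are single libraries and have no error. H3K27ac coverage is lower in the double mutant in the first 3 steps of 10 kb and no lower in every later step.

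Step by step along the window, H3K27ac in the first 10 kb covered 0% of bases in the double mutant and 38.5% in wild type. In the next 10 kb it covered 39.4% in the double mutant and 100% in wild type, and in the third 48.9% in the double mutant and 100% in wild type. From 30 to 50 kb both genotypes were at 100%. From 50 to 60 kb coverage was 100% in the double mutant and 95.5% in wild type. From 60 to 70 kb it was 100% in the double mutant and 69.6% in wild type, and from 70 to 80 kb coverage was 46.5% in the double mutant and 31.3% in wild type. Neither genotype had a called base between 74554652 and 74587259, a stretch of 32.6 kb.

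H3K27me3 was compared next, to see whether Polycomb marking of the cluster differed with the genotype. It covered nearly the whole window in both. Coverage was 121 kb, or 93.1%, in the double mutant and 129 kb, or 99.3%, in wild type. The called peaks did not place H3K27me3 on one side and H3K27ac on the other. Of H3K27ac bases in the window, 98.6% in the double mutant and 100% in wild type lay inside H3K27me3 of the same genotype. Called peaks cannot show whether the level of H3K27me3 was lower where H3K27ac was called. Over all H3K27ac peaks the share of bases inside H3K27me3 of the same genotype was 8.88% in the double mutant and 11.1% in wild type. With H3K27me3 over nearly the whole window, the high share there was largely set by that coverage.

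The double-mutant H3K27me3 peaks lay at 74480546 to 74540451 (59.9 kb, score 3100), 74540484 to 74543406 (score 1444), 74543669 to 74554158 (score 1112), 74556303 to 74596370 (40.1 kb, score 3100) and 74597464 to 74605042 (score 3100). In wild type 1 peak of 126 kb at 74479846 to 74605456 (score 3100) took their place, rank 2 by width among 28875 peaks, followed by peaks at 74606410 to 74609154 (score 106) and 74609160 to 74610106 (score 54.9). The first wild-type peak overlapped all 5 double-mutant peaks. Autosomes served as the background where H3K27me3 lists were set against each other, since the lists differed outside them. The shares of all H3K27ac bases and of all HOX13 sites that lay in H3K27me3 were taken over all chromosomes. Those shares therefore include the peaks outside autosomes, and their difference between genotypes was not corrected for that. Of 28875 wild-type H3K27me3 peaks 19624 were autosomal, and of 19358 double-mutant peaks 18973. The cause of this difference was not tested. None of the 5 double-mutant peaks in the window lacked a wild-type peak, against 15.8% of autosomal double-mutant peaks. The wild-type list covered nearly the whole window, so such overlap was nearly certain. The last 2 wild-type peaks had no double-mutant partner, which makes 2 of 3 against 30.4% of autosomal wild-type H3K27me3 peaks. With a score of 100 or more required, 1 such peak remained, and joining of peaks closer than 1000 bp left 0.

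By bases, no double-mutant H3K27me3 in the window lay outside wild-type peaks, compared with 8.74% on autosomes. Wild-type H3K27me3 covered 99.3% of the window, which left little room for such bases. In the opposite direction 8.08 kb, or 6.26% of wild-type H3K27me3 bases, lay outside double-mutant peaks, compared with 26.3% on autosomes. The widest gap inside the double-mutant domain was 2.14 kb at 74554159 to 74556302, which starts within 1 kb of the end of double-mutant H3K27ac at 74554651. Combining the marks, 42.8% of the window carried both in the double mutant and 50.8% in wild type. H3K27me3 alone covered 50.2% in the double mutant and 48.4% in wild type. H3K27ac alone covered 787 bp in the double mutant and 0 bp in wild type.

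The border fit for H3K27me3 fell at 74605042 in the double mutant and at 74610000, the end of the window, in wild type. The wild-type border depended on the window: with 20 kb added at each end it moved to 74479845, the low edge of the domain, with the covered side above it. Neither position lay near the H3K27ac border of the same genotype, and H3K27me3 was called on both sides of that border in both.

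H3K27me3 at E11.5 was set beside E10.5, when limb buds are younger. The libraries also differ in antibody, strain and the part of the limb taken, and stage cannot be told apart from these. E10.5 H3K27me3 covered at least 79.6% of every 10 kb step in the first 60 kb, towards Evx2 and Hoxd13. In the middle of the window it covered 11.1% from 60 to 70 kb and 0% from 70 to 90 kb. Towards Hoxd1 it rose again to 72.5% from 90 to 100 kb and 88.6% from 100 to 110 kb. The last steps were sparse, at 19.7% from 110 to 120 kb and 24.6% from 120 to 130 kb. H3K27me3 covered 93.1% of the window in the double mutant and 99.3% in wild type at E11.5, and 76.9 kb, or 59.1%, at E10.5.

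The 18 E10.5 peaks fell into 3 groups separated by at least 5000 bp. The first held 10 peaks from 74480010 to 74542251 with scores between 54.6 and 3100, the second 6 peaks from 74572213 to 74590685 with scores between 51.7 and 719, and the third 2 peaks from 74598720 to 74603207 with scores of 189 and 189.7. The highest scores were all in the part facing Evx2, at 74494069 to 74505970 (score 3100), 74511212 to 74520256 (score 2988) and 74480010 to 74493743 (score 1524). That part includes the stretch where the double mutant lacked H3K27ac. All 18 peaks overlapped H3K27me3 of the double mutant and of wild type. Of all autosomal peaks at E10.5, 19.5% had no partner in the double mutant and 13.6% none in wild type. Within the window a partner was nearly certain, since E11.5 H3K27me3 covered 93.1% of it in the double mutant and 99.3% in wild type.

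The longest bare stretch at E10.5 was 29961 bp, at 74542252 to 74572212. H3K27me3 covered 92.0% of it in the double mutant and 100% in wild type at E11.5, and H3K27ac covered 41.4% in the double mutant and 31.1% in wild type. In all, 52.2 kb or 40.4% of wild-type H3K27me3 bases in the window lay outside E10.5 H3K27me3, compared with 42.3% on autosomes, so the overall share was near that of the autosomes. No E10.5 base in the window lay outside wild-type H3K27me3, compared with 14.7% on autosomes. Wild-type H3K27me3 covered 99.3% of the window, which left little room for such bases. The single border of E10.5 H3K27me3 fell at 74539412, 59.4 kb from the low end, with coverage on the side of Evx2 and Hoxd13, and it placed 80.1% of the bases. The H3K27ac border at E11.5, at 74.7 kb in the double mutant and 73.1 kb in wild type, lay further towards Hoxd1.

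HOXA13 and HOXD13 were mapped to ask where in the cluster they bind. Their peaks were spread from 74486603 to 74588307, over the H3K27ac block and beyond it towards Hoxd1. Of the 24 HOXA13 peaks 20 overlapped a HOXD13 peak (83.3%, Wilson 95% interval 64.1 to 93.3%), against 63.9% of all HOXA13 peaks. Of the 21 HOXD13 peaks 18 overlapped a HOXA13 peak (85.7%, 65.4 to 95.02%), against 86.9% of all HOXD13 peaks. These intervals cover the counting of peaks only and treat neighbouring peaks as independent, which they are not. The second share is near that of the whole list. HOXD13 peaks covered 35.8% of the window and HOXA13 peaks 29.8%, and such density raises overlap. Whether the first share exceeds that of the list beyond this was not tested.

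The highest HOXA13 scores were at 74536289 to 74537764 (score 1561), 74538714 to 74543303 (score 1003) and 74549147 to 74550784 (score 951). For HOXD13 they were at 74534768 to 74537797 (score 1709), 74488394 to 74492695 (score 1211) and 74506888 to 74512540 (score 1047). The highest-scoring peak of HOXA13 and that of HOXD13 overlapped each other and lay in H3K27ac of both genotypes, whereas the second HOXD13 peak named, at 74488394, lay in wild-type H3K27ac and outside that of the double mutant. Scores ranged down to 51.5 for HOXA13 and 54.8 for HOXD13. The median was 205 for HOXA13 members and 126 for the whole HOXA13 list, and 265 for HOXD13 members and 133 for the whole HOXD13 list. The median width of HOXA13 members was 1375.5 bp and that of the whole HOXA13 list 1036 bp. For HOXD13 the median was 1761 bp for the members and 1156 bp for the whole list.

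**Figure D3:**
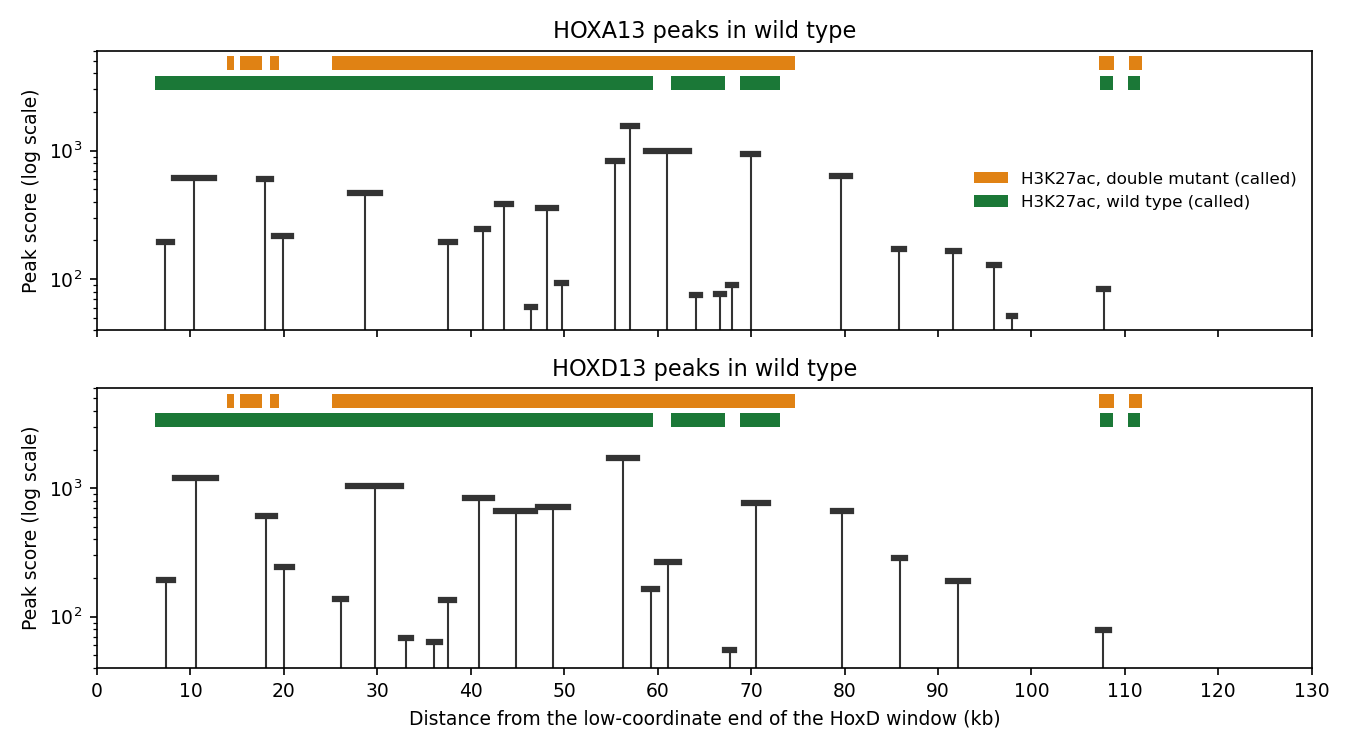
HOXA13 (upper) and HOXD13 (lower) peaks of wild type along the window, by distance in kb from its low-coordinate end; the height is the authors' peak score on a log axis and the horizontal line the width of the peak. Coloured bars at the top show called H3K27ac of the double mutant (above) and wild type (below); the highest score of each factor, 1561 and 1709, lies where both are called.

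Merging overlapping peaks of both factors gave 23 sites: 16 bound by both, 4 by HOXA13 only and 3 by HOXD13 only. Sites of both factors made up 58.0% of all sites in the genome. H3K27ac of the double mutant overlapped 16 of the 23, against 34.3% of all sites, and H3K27ac of wild type 18 of 23, against 37.6%. With a score of 100 or more required in every list, the sites numbered 16, of which 10 had double-mutant and 12 wild-type H3K27ac. All 23 overlapped H3K27me3 in both genotypes, against 8.57% of all sites in the double mutant and 11.2% in wild type, and 17 overlapped E10.5 H3K27me3, against 6.58%. Both marks together were called at 16 sites in the double mutant, against 3.46% of all sites, and at 18 in wild type, against 4.34%. H3K27me3 covered 93.1% of the window in the double mutant and 99.3% in wild type. Overlap with H3K27me3 was therefore nearly certain for any site in the window, and the counts of both marks equal those of H3K27ac. H3K27ac covered 43.4% of the window in the double mutant and 50.8% in wild type, and E10.5 H3K27me3 covered 59.1%. Any stretch in the window was thus likely to overlap these marks too. How much of the excess over all sites came from that coverage was not tested. The 23 sites lie in 1 wide domain and are not independent of each other.

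Among the sites, 2 of the 18 with wild-type H3K27ac overlapped none in the double mutant, against 20.3% of all such sites. Both lay at the low edge of the block, at 74486603 to 74488081 (HOXA13 score 194, HOXD13 score 193) and 74488292 to 74492695 (609 and 1211). The next site, at 74497240 to 74500898 (598 and 605), was covered by H3K27ac over 36.0% in the double mutant and 100% in wild type. These sites were described after their values were seen. Scores of the first lay below the median of the members of each list, and those of the next 2 above it. The site that followed, 74505485 to 74506644, was bound by HOXD13 only (score 138), and H3K27ac covered 99.6% of it in the double mutant and 100% in wild type.

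Further into the block the opposite occurred at 2 sites, which fell in the gaps between the wild-type pieces. At 74538552 to 74543303 (HOXA13 score 1003, highest HOXD13 score 265) H3K27ac covered 100% in the double mutant and 59.6% in wild type. At 74547223 to 74548380 (HOXA13 score 89.7, HOXD13 score 54.8) it covered 100% in the double mutant and 2.85% in wild type. The other sites inside the wide double-mutant peak were covered fully by H3K27ac in both genotypes.

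No H3K27ac of either genotype overlapped 5 of the 23 sites, and all 5 lay between 74558694 and 74578286, on the Hoxd1 side of the H3K27ac border. Of all sites in the genome only 34.3% overlapped H3K27ac in the double mutant and 37.6% in wild type. Lacking it was thus the usual state in each genotype. Of the 5 sites without H3K27ac, the first 3 were bound by both factors and the last 2 by HOXA13 only. The highest scores among them were at 74558694 to 74560699 (HOXA13 638, HOXD13 669), above the medians of the members of each list. HOXA13 members outside wild-type H3K27ac had a median score of 148 (6 peaks) and those inside it 302 (18 peaks). For HOXD13 the medians were 288 (3 peaks) outside and 253 (18 peaks) inside, so no order held for both factors. The site nearest Hoxd1, at 74587092 to 74588307 (84 and 79.5), lay at the first peak of the distant H3K27ac pair.

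To see how the window compared with other parts of the genome, autosomes were tiled with 19018 other windows of 130 kb. The HoxD window held more HOXA13 peaks than any of them (24, with a highest value of 23 and a median of 1 elsewhere), and 1 other window held more HOXD13 peaks (22). Bases with both marks amounted to 55655 bp in the double mutant, more than in any other window (at most 35369 bp), and to 66061 bp in wild type, where 1 other window had more (80518 bp). The 15136 bp of wild-type H3K27ac bare in the double mutant was exceeded by 1 other window (17538 bp). By H3K27ac coverage the window ranked 32 in the double mutant and 4 in wild type. The HoxD window was centred on a known cluster while the others fell anywhere, so these ranks are a description.

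Among 23 autosomal wild-type H3K27me3 peaks of 50 kb or more, that of HoxD was the second widest. H3K27ac covered 44.9% of it in the double mutant and 52.6% in wild type, while the other 22 had medians of 1.48% in the double mutant and 0% in wild type. The difference of -7.66 percentage points, double mutant minus wild type, was the lowest of the 23, and the others ranged from -3.09 to 12.5. Among 130 such peaks of 30 kb or more the HoxD difference ranked 2 from the lowest. In both sets the median of the others was 0% in wild type, so most had too little H3K27ac to fall that far. The ranks therefore depend on how much H3K27ac a domain had in wild type. HOXA13 peaks numbered 1.91 and HOXD13 peaks 1.67 per 10 kb of the HoxD domain, against medians of 0.347 and 0.174 in the other 22. A domain on chromosome 6 (52141834 to 52210460) was higher in both factors (2.48 per 10 kb each) and in H3K27ac (89.4% in the double mutant and 88.1% in wild type). H3K27me3 of the double mutant covered 96.3% of the HoxD domain and 0% of that on chromosome 6.

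**Figure D4:**
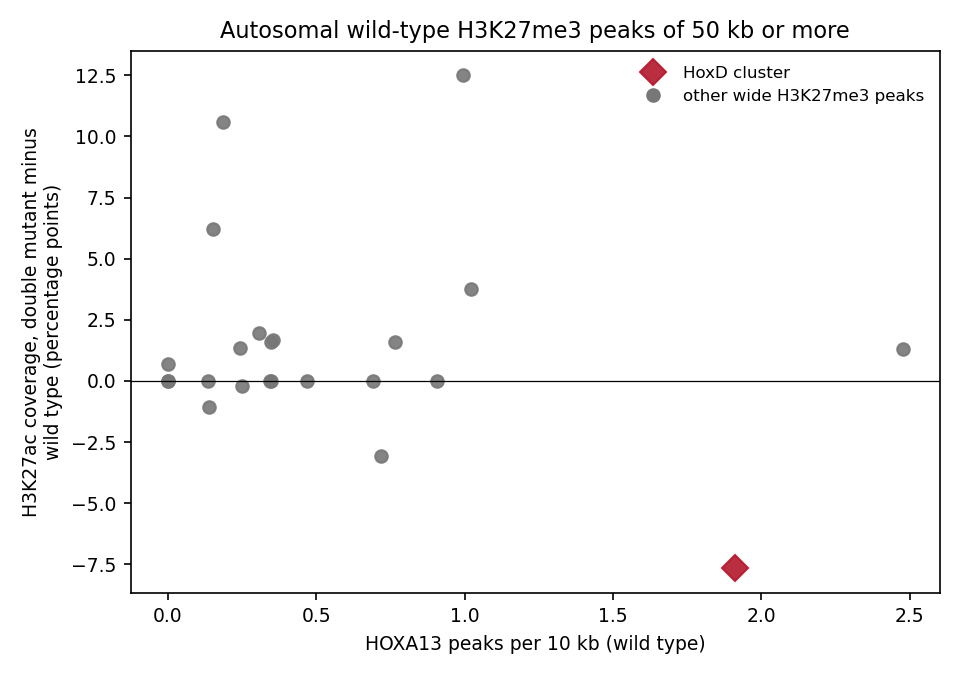
Each point is 1 of 23 autosomal wild-type H3K27me3 peaks of 50 kb or more; the x axis is HOXA13 peaks per 10 kb and the y axis the H3K27ac coverage of the double mutant minus that of wild type, in percentage points. The HoxD domain (diamond) lies at 1.91 peaks per 10 kb and -7.66 points, below all others. Most of the others had too little wild-type H3K27ac to fall that far.

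At the ends of the window, the peaks just inside and just outside were as follows. On the low side, the H3K27ac peak nearest to the window was at 74458150 to 74459268 (score 124) in the double mutant and at 74454751 to 74460274 (score 3100) in wild type. The distance to the window was 20.7 kb for the double-mutant peak and 19.7 kb for the wild-type peak. HOXA13 (74454937 to 74459186, score 3025) and HOXD13 (74454829 to 74459337, score 3100) peaks overlapped both, each with a score above all members of its own list in the window. The first members inside were at 74493952 for double-mutant H3K27ac, 74486156 for wild-type H3K27ac, 74486603 for HOXA13 and 74486687 for HOXD13. The nearest H3K27me3 peak on that side was 319 kb away in the double mutant, 318 kb in wild type and 1.54 kb at E10.5 (74477187 to 74478455, score 54.7). On the high side, the last members inside ended at 74591878 for double-mutant and 74591566 for wild-type H3K27ac, 74588214 for HOXA13 and 74588307 for HOXD13. The next H3K27ac peak outside was 53.1 kb away in the double mutant and 53.2 kb in wild type, and both factors had their next peak 43.9 kb away. The last H3K27me3 members ended at 74605042 in the double mutant, 74610106 in wild type and 74603207 at E10.5, and the next peak outside lay 5.35 kb away in the double mutant, 4.52 kb in wild type and 260.0 kb at E10.5.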

How the data were processed

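ChIP-seq peak lists of 7 immunoprecipitated libraries were used; the 5 input libraries were not analysed here. The submitters' processing notes name Bowtie 0.12.7, MACS 1.4 and mm9, and the names of the deposited lists give an input as the background of each. The deposited value of each peak is the authors' score, read as a p-value on a negative log scale, as MACS writes it, with a lowest value of 50. Groups were taken from the sample titles. In each list some peaks lay beyond the length that chromosome 1 has in GRCm38, so positions were kept as mm9, counted from 1, and gene models of GRCm38 were not placed on peaks.

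Peaks overlapping the window by at least 1 bp were members, in the comparisons too; covered bases, 10 kb steps, border fits and sites were computed with Python 3.11.15 and numpy 2.4.6, and tested on simulated data. A lost peak is a wild-type peak with no double-mutant peak. Depth is unknown, so intervals (Wilson, 95%) cover counting only. The members and the lists were chosen with earlier results of these data known. Named were all 10 genes, every H3K27me3 peak of E11.5, all 12 H3K27ac peaks, of which the 3 with the highest score in each class were set to be named and the rest added for completeness, and the 3 highest-scoring peaks of the other lists; sites were named after their values were seen. Alternatives were a score of 100 or more, equal list lengths, joining of peaks closer than 1000 bp, other overlap rules and other windows.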

Additional observations from a re-analysis of the deposited data

How the results depend on the processing

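Of 121 recomputed values over 42 results, 109 kept their size (within counting error of a share with 1 kb as the unit, 1000 bp of a position or 1.5 times a count) and 12 did not; the cause of the changes was not tested. No paired analysis was possible because each group holds 1 library, and for the same reason no library could be left out. With peaks closer than 1000 bp joined, wild-type H3K27me3 covered 100% of the window. The number of wild-type H3K27me3 peaks without a double-mutant peak, 2, became 1 with a score of 100 or more, 1 with equal list lengths and 0 with joining. With the window extended by 20 kb at each end, the single border of wild-type H3K27me3 moved to 74479845, the low edge of its domain. With a score of 100 or more, 10 of 16 HOX13 sites overlapped double-mutant H3K27ac in place of 16 of 23, so the number of sites fell as well. With the tiles started at another offset, the window ranked 1 by HOXD13 peaks and 1 by bases with both marks in wild type. Among wild-type H3K27me3 peaks of 30 kb or more, it ranked 5 by H3K27ac coverage in wild type, 5 in the double mutant and 5 by HOXD13 density, and 2 from the lowest by the difference in H3K27ac. The borders and block ends of H3K27ac, of double-mutant H3K27me3 and of E10.5 H3K27me3 stayed within 1000 bp under the alternatives tried. Unknown depth limits every call, since a longer list can come from deeper sequencing.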
